A study of Mus musculus with 6 samples.

Results

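Matn1, Matn2, Matn3, Matn4, Cilp, Cilp2, Comp, Chad, C1qtnf3 and Cnmd, 10 of the 33696 genes in the count tables, encode secreted or shed proteins known mainly from the matrix of cartilage. They were picked by symbol, with their levels in these libraries already known, to ask which of them appeared in tendon cells other than chondrocytes at 7 and 21 days post injury (dpi). Their levels are therefore given as a description, with no test.

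The cells came from the Achilles tendons of Gli1-CreERT2; Ai9 mice given tamoxifen. In these mice a red fluorescent reporter marks the cells in which the Gli1 promoter drove Cre at the time of tamoxifen, and their descendants. Reporter-positive (Gli1+) and reporter-negative (Gli1-) cells were separated by flow cytometry from uninjured tendons and from tendons 7 and 21 days after tenotomy, a surgical cut that is followed by cartilage and bone within the tendon. Every group carried both alleles and received tamoxifen, 8 mice were used per time (24 in all), and each sort at each time gave 1 library of a 3' droplet assay, with no record of which cell came from which mouse. The 6 libraries therefore form 6 groups of 1, no test between groups was made, and every interval below is a 95% interval for counting error only.

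Cartilage matrix is a mesh of type II collagen fibrils and aggrecan, and the proteins studied here sit at its joints. Matrilins (Matn1 to Matn4) and Comp are multi-armed adaptors that tie collagen fibrils to one another and to proteoglycans, chondroadherin (Chad) links collagen to cell-surface integrins, and Cilp and Cilp2 are secreted proteins of the middle zone of articular cartilage, of which Cilp binds TGF-beta. C1qtnf3 is a secreted protein related to C1q and adiponectin that is made by growing cartilage, and chondromodulin (Cnmd) keeps cartilage free of vessels and is the closest relative of tenomodulin (Tnmd), the surface protein of mature tenocytes. Tendon shares part of this matrix, and Comp in particular is long known from load-bearing tendon.

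After filters and the removal of likely doublets, the libraries held 7057 to 10882 cells with a median of 4297 to 9775 unique molecular identifiers (UMIs, counts of RNA molecules) per cell, the lowest in uninjured Gli1- cells. Any pair of libraries shared 27 to 75 cell barcodes. The labels state an equal distribution of the sexes, but cells with Y-linked and no Xist UMIs made up 70.9% and 70.5% of the 2 libraries at 7 dpi and 59.6% of the uninjured Gli1- library, whereas cells with Xist and no Y-linked UMIs made up 92.7% and 90.5% of those at 21 dpi and 68.7% of the uninjured Gli1+ library, which also held 15% of the other kind. Sex and time can therefore be separated only in the comparisons of Gli1+ cells with the uninjured library and in Gli1- cells at 7 dpi, where values within a sex are given beside the results. For the comparisons of 21 with 7 dpi, and of 21 dpi with uninjured Gli1- cells, sex and time cannot be told apart.

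Levels were summed over 4 kinds of cells and expressed as CPM, UMIs of the gene per 1000000 UMIs of the summed cells. Pdgfra cells, which stand for the fibroblasts and progenitors, had at least 1 Pdgfra UMI and no UMI of Col2a1 (type II collagen) or of the endothelial gene Cdh5, and numbered 1668 to 5099 per library. Scx cells, which stand for the tendon lineage, had at least 1 UMI of the tendon transcription factor Scx under the same exclusions and numbered 502, 1808 and 1826 in uninjured, 7 dpi and 21 dpi Gli1+ tendon, and 95, 1356 and 1067 in Gli1- tendon. The 2 kinds overlap. Col2a1 cells had at least 5 Col2a1 UMIs and Cdh5 cells, the endothelial background, had a Cdh5 UMI without Col2a1, Pdgfra or Scx. In Scx cells the summed level of the 5 tenocyte markers, of which Scx itself is 1, was 1906 to 9251 CPM. Gli1+ Scx cells at 7 dpi also held 3331 CPM of the 3 epidermal markers, and 355 of 1808 of them had no UMI of Ptprc (immune) or Krt5 (epidermal). In Col2a1 cells at 7 and 21 dpi the 6 chondrocyte markers summed to 17844 to 28936 CPM. Col2a1, which chose these cells, is 1 of the 6, so part of that sum was fixed in advance. The 5 bone markers summed to 274 and 1812 CPM in Gli1+ and Gli1- cells at 7 dpi and 13855 and 5129 CPM at 21 dpi. In Gli1+ Col2a1 cells at 21 dpi the chondrocyte markers other than Col2a1 summed to less than the 13855 CPM of the bone markers. Nearly all of the 70897 Col2a1 UMIs of that library lay in those cells, among their 4204155 UMIs of all genes. Their name as chondrocytes thus rests on the gate gene. For Gli1- Col2a1 cells at 21 dpi this was not tested. In uninjured tendon the markers went against the name of 1 kind: the 22 Gli1+ Col2a1 cells held 45184 CPM of the bone markers against 2416 CPM of the chondrocyte markers and the Gli1- library held 1 such cell, so uninjured Col2a1 cells were not used as chondrocytes. In all of these sums, fewer cells of a type and less RNA per cell cannot be told apart.

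**Figure D1:**
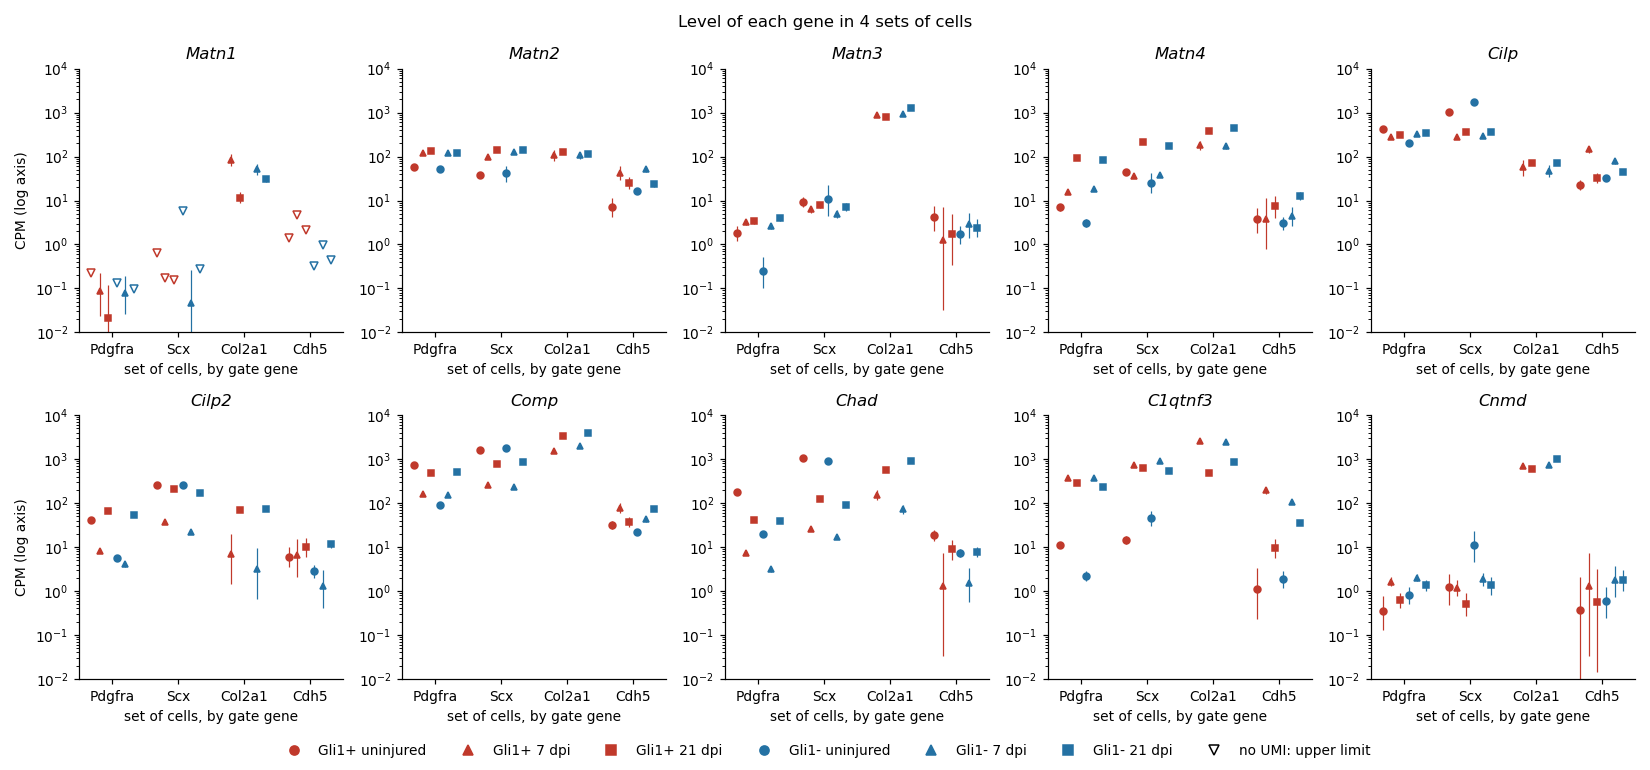
Level of each gene (CPM, log axis) in Pdgfra, Scx, Col2a1 and Cdh5 cells of the 6 libraries, with bars for the 95% counting interval. Matn3 and Cnmd stand at 600 to 1239 CPM in the Col2a1 cells of injured tendon and at 11.1 CPM or less in the other cells shown, whereas Comp, Cilp, Matn2 and, after injury, C1qtnf3 are above their Cdh5 level in Pdgfra and Scx cells. An open triangle gives the upper limit where no UMI was found, and uninjured Col2a1 cells are not drawn.

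Matn1, Matn3 and Cnmd lay mostly in the Col2a1 cells after injury, more so at 21 than at 7 dpi. At 21 dpi Col2a1 cells were 2.68% of Gli1+ and 2.96% of Gli1- cells and held 4.28% and 5.10% of all UMIs, yet they held 96.1% and 98.1% of the Matn1 UMIs, 96.6% and 96.7% of the Cnmd UMIs, and 87.8% and 92.5% of the Matn3 UMIs. At 7 dpi, when they were 0.335% and 0.463% of the cells, they held 84.1% and 90.7% of the Matn1, 68.6% and 74.6% of the Cnmd and 52.5% and 69.8% of the Matn3 UMIs. For comparison, at 21 dpi they held 98.1% and 97.4% of the UMIs of Col2a1, the gene that chose them. They held 47.1% and 58.0% of those of aggrecan (Acan) and 1.79% and 3.06% of those of Tnmd. The other 7 genes had smaller shares in Col2a1 cells at 21 dpi than Matn1, Cnmd and Matn3. For Chad 53.8% of Gli1- but 27.6% of Gli1+ UMIs lay there. Comp followed with 24.0% and 30.4% in Gli1+ and Gli1- cells, Matn4 with 12.4% and 22.1% and C1qtnf3 with 6.81% and 16.4%. These shares were all above the share of all UMIs that the Col2a1 cells held. Cilp2, Matn2 and Cilp, at 3.07% and 5.84%, 4.47% and 5.28%, and 1.09% and 1.32%, lay near or under the share of all UMIs that the Col2a1 cells held.

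**Figure D2:**
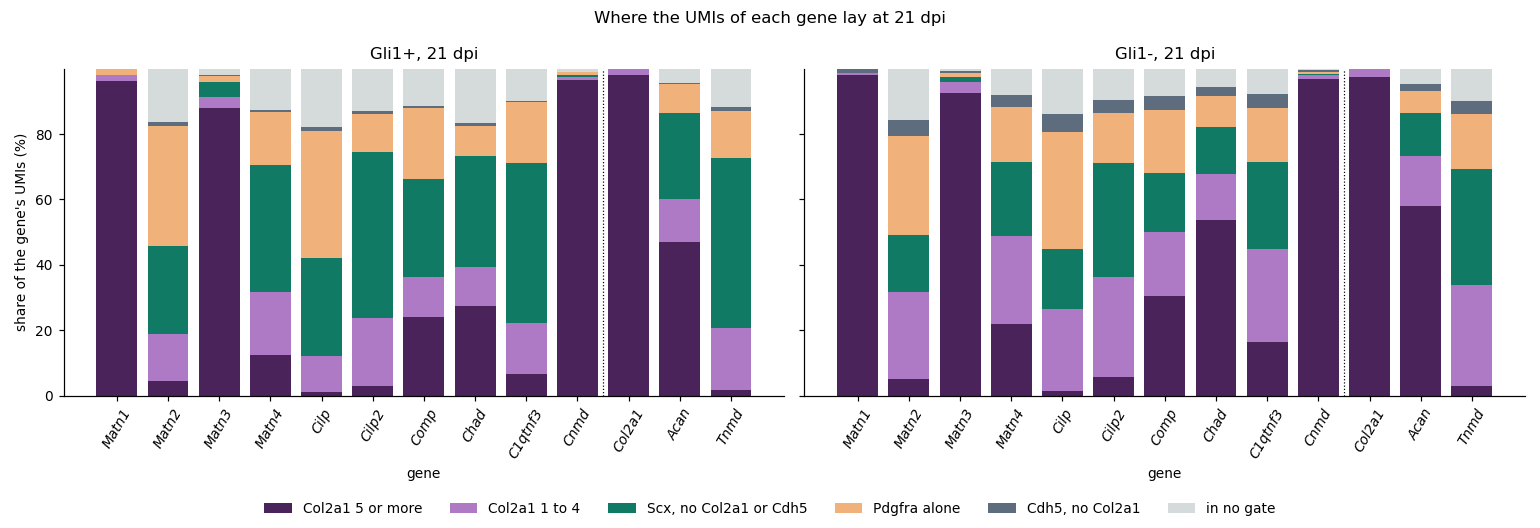
Share of each gene's UMIs (percent) that lay in each kind of cell at 21 dpi, for the Gli1+ and the Gli1- library, cells being sorted into kinds that do not overlap. Matn1, Cnmd and Matn3 lie mostly in cells with 5 or more Col2a1 UMIs, while Cilp, Matn2 and Cilp2 lie mostly outside them.

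Cnmd stood at 692, 600, 730 and 1018 CPM in the Col2a1 cells of Gli1+ 7 dpi, Gli1+ 21 dpi, Gli1- 7 dpi and Gli1- 21 dpi tendon. In Pdgfra cells of the same libraries it was at 1.64, 0.617, 2.02 and 1.35 CPM, or 76, 29, 125 and 50 UMIs, and in Cdh5 cells, which should not make it, at 1.30, 0.566, 1.82 and 1.81 CPM. The intervals of Pdgfra and Cdh5 cells overlapped in every injured library, although the Cdh5 values rest on 1, 1, 7 and 15 UMIs and are wide. Matn3, the matrilin of growth cartilage, behaved alike, with 888, 787, 924 and 1239 CPM in Col2a1 cells, 3.26, 3.38, 2.60 and 4.03 CPM in Pdgfra cells and 1.30, 1.70, 2.85 and 2.41 CPM in Cdh5 cells. In Scx cells of the injured libraries Matn3 reached 6.28, 7.87, 4.99 and 7.28 CPM, and at 21 dpi the lower limits of these levels, 6.77 and 5.91 CPM in Gli1+ and Gli1- cells, lay above the upper limits of the Cdh5 cells, 4.96 and 3.73 CPM. Matn1, the matrilin of mature cartilage, had 84.5, 11.7, 51.9 and 30.5 CPM in Col2a1 cells on 37, 49, 49 and 153 UMIs, against 4, 1, 5 and 0 UMIs in all Pdgfra cells of those libraries.

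Within the Col2a1 cells Matn3 and Cnmd were higher the more Col2a1 a cell had, which is a description since Col2a1 chose the cells. At 21 dpi Matn3 went from 41.3 CPM in the 80 Gli1+ cells with 5 to 19 Col2a1 UMIs to 1089 CPM in the 182 with 20 or more, and from 33.2 to 1549 CPM in the 80 and 242 Gli1- cells. Cnmd went from 55.3 to 820 CPM and from 40.0 to 1270 CPM. In the 1075 Gli1+ and 2249 Gli1- cells with 1 to 4 Col2a1 UMIs, Cnmd was at 1.74 and 2.75 CPM, against 0.805 and 1.54 CPM in cells with none. Comp, which had 466 and 464 CPM in cells without Col2a1, went from 1209 to 4261 CPM and from 1296 to 4481 CPM between the 2 upper ranges. Cilp ran the other way, from 299.95 and 292 CPM without Col2a1 to 20.4 and 43.1 CPM in the cells with 20 or more UMIs. C1qtnf3 in Gli1+ cells at 21 dpi was at 287 CPM without Col2a1, highest at 545 CPM with 5 to 19 UMIs and at 458 CPM with 20 or more. In Gli1- cells it went from 215 CPM without Col2a1 to 936 CPM with 20 or more UMIs. At 7 dpi the 18 and 30 cells with 20 or more Col2a1 UMIs held 3204 and 2913 CPM of it.

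**Figure D3:**
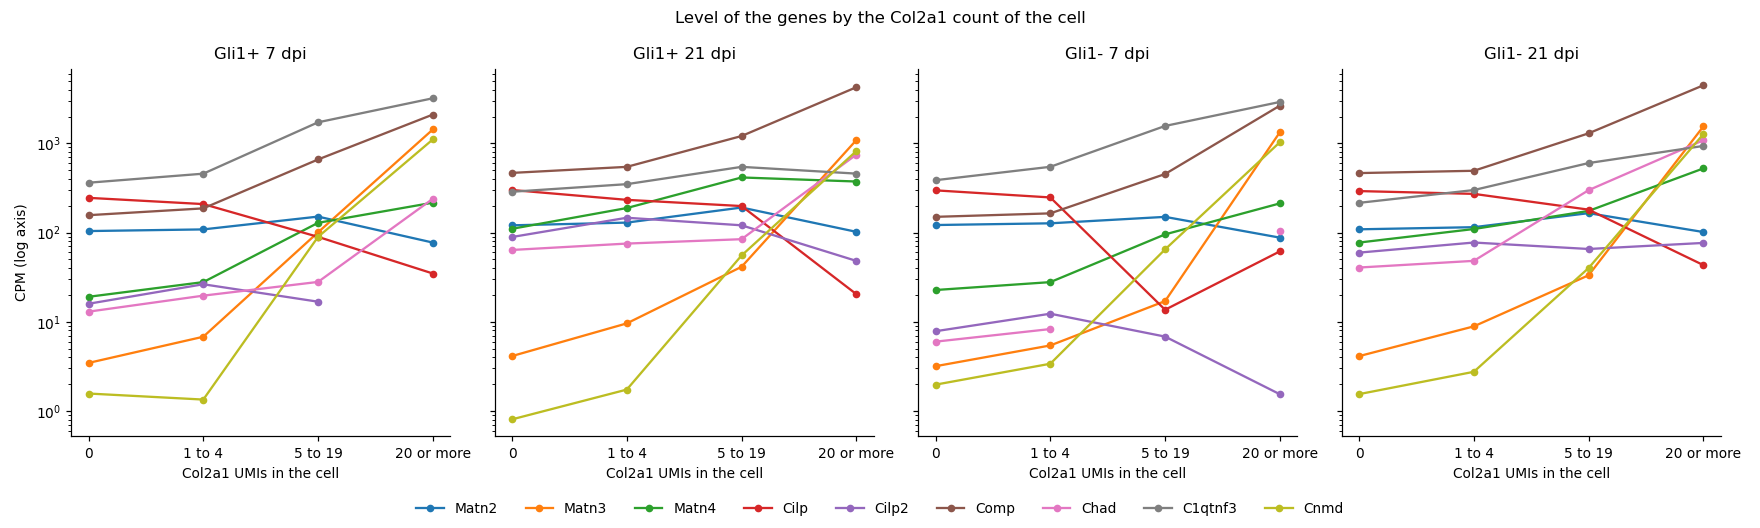
Level (CPM, log axis) of the genes other than Matn1 in cells grouped by their number of Col2a1 UMIs, for the 4 injured libraries, each point being the sum over the cells of a range. Matn3 and Cnmd climb steeply between the cells with 5 to 19 and those with 20 or more UMIs, to 1089 and 820 CPM in Gli1+ cells at 21 dpi, and Cilp ends below its level in cells without Col2a1.

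Set against Pdgfra cells of the same library at 21 dpi, 6 of 10 genes were called higher and 1 lower in Gli1+ Col2a1 cells, where 6.21% and 10.8% of 15751 tested genes were called. A gene was called where its ratio was at least 2-fold, the interval of the log2 ratio left out 0 and both sums together held at least 20 UMIs. Gli1- Col2a1 cells had 7 of 10 higher and 1 lower, against 6.43% and 10.7% of 15468 genes. Since the genes were picked for levels in these same cells, the counts describe the choice. The log2 ratios in Gli1+ and Gli1- cells were 9.92 and 9.56 for Cnmd, 7.86 and 8.27 for Matn3, 3.75 and 4.58 for Chad, 2.82 and 2.89 for Comp and 2.05 and 2.46 for Matn4. Matn1 was at 9.10 in Gli1+ cells on 1 UMI in Pdgfra cells, with an interval of 6.55 to 14.43, and at least 8.56 in Gli1- cells, whose Pdgfra cells had none, set to the floor of 3 counts. Thinned, Matn1 was at 4.95 and 5.65 and was called in neither. C1qtnf3 was at 0.74 in Gli1+ cells, not called, and at 1.93 in Gli1- cells. In thinned cells (1.16) and with the mean of per-cell CPM (1.01) it was called in Gli1+ cells too. Cilp was the gene lower in Col2a1 cells (-2.12 and -2.24), and Matn2 (-0.08 and -0.08) and Cilp2 (0.04 and 0.47) were not called in either. Thinned, Cilp2 was called higher in Gli1- cells (1.28). Of the other 40 cartilage and tendon matrix genes, 20 of 39 tested were higher and 7 lower in Gli1+, and 22 and 7 of 39 in Gli1- Col2a1 cells. Col2a1 itself is 1 of the higher genes in both, which the choice of the cells fixed.

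The starts of Matn3 and Cnmd, the pair whose levels ran closest together, are shown to let the sequence be read beside the levels. These are the 250 bases before the annotated start in mouse build GRCm38.p6, from RefSeq, which held promoters for 8 of the 10 genes and none for Comp and Matn2. They are written 5' to 3' on the strand of the gene, Matn3 from chr12:8947679-8947928 (plus strand) and Cnmd from chr14:79662184-79662433 (minus strand), with each E-box (CANNTG, the 6 letters that basic helix-loop-helix factors such as Scx bind, which read alike as a pattern on both strands) in capitals.
Matn3: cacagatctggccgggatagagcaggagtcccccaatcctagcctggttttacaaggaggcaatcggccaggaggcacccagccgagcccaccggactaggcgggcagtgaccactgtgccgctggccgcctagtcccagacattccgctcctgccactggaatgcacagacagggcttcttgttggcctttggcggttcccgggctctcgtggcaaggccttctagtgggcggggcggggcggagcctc
Cnmd: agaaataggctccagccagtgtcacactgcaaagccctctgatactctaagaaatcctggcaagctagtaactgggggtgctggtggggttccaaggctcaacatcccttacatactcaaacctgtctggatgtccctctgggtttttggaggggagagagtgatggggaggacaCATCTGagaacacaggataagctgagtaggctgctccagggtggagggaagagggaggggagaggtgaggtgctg
Cnmd had 1 E-box, at 75 bases before the start, and Matn3 none, where 66.2% of 32851 promoters had at least 1. Matn3 had 3 overlapping GC boxes (GGGCGG on either strand) within the last 22 bases, a motif held by 32.7% of promoters, and neither had a TATA box (TATAAA, 12.4%) or the SOX motif searched (AACAAT, 9.42%) on either strand. A match is a run of letters and not a shown binding site.

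In uninjured tendon Comp, Cilp, Chad and Cilp2 were the genes with high levels, and of the kinds of cells they were highest in Scx cells. The 114 Gli1+ cells with 1 to 4 Col2a1 UMIs, which that kind leaves out, held more Chad and Cilp2, at 1240 and 352 CPM. Comp and Cilp were lower there, at 846 and 889 CPM. These cells also held 355 CPM of Scx and 1069 CPM of Tnmd. In the 30 such Gli1- cells Chad and Cilp2 were at 728 and 201 CPM. Comp stood at 1577 and 1745 CPM in Gli1+ and Gli1- Scx cells, Cilp at 1028 and 1704 CPM, Chad at 1047 and 918 CPM and Cilp2 at 262 and 262 CPM. In the Cdh5 cells of the same libraries the 4 genes had 32.3 and 22.2, 22.6 and 31.7, 18.8 and 7.29, and 6.01 and 2.83 CPM. The 2 sorts were thus close to each other in Scx cells for Comp, Chad and Cilp2, and Gli1- cells had more Cilp, although the Gli1- values rest on 95 cells. Gli1+ Scx cells of uninjured tendon also held 1310 CPM of the 3 epidermal markers and 244 CPM of the 4 immune markers, against 11.1 and 6.34 CPM in Gli1- Scx cells, where 1 epidermal and 2 immune markers were above 0. Of the 502 Gli1+ Scx cells 389 had no Ptprc or Krt5 UMI. The levels above are for all 502, and the part of the others in them is not given here.

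Pdgfra cells of uninjured tendon differed between the sorts much more. Comp was at 724 CPM in Gli1+ and 88.7 CPM in Gli1- Pdgfra cells, Chad at 181 and 19.6 CPM, Cilp2 at 40.5 and 5.59 CPM and Cilp at 431 and 208 CPM. Of 9 genes tested 7 were called higher in Gli1+ and 0 lower, against 13.5% and 5.07% of 16381 genes. The log2 ratios of Gli1+ over Gli1- were 3.20 for Chad (interval 3.07 to 3.34), 3.03 for Comp (2.97 to 3.09), 2.86 for Cilp2, 2.83 for Matn3, 2.33 for C1qtnf3, 1.20 for Matn4 and 1.05 for Cilp. Matn3 rests on 30 and 7 UMIs, 1.80 and 0.252 CPM, under the 4.14 and 1.72 CPM of the Cdh5 cells, and in thinned cells its ratio was 3.25 on too few UMIs for a call. The call of Matn4 was lost in thinned cells (1.08), and was also lost with the mean of per-cell CPM (0.98). Matn2 was level at 0.18 and Cnmd, at 6 and 22 UMIs, was not called. In cells with Y-linked and no Xist UMIs alone, the ratios of Chad, Comp, Cilp2, Cilp and Matn4 were 4.04, 3.51, 4.14, 1.41 and 2.13, and C1qtnf3 (0.80) was not called. Matn3 was at 3.61 (2.11 to 5.29) there, with too few UMIs for a call.

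The share of Pdgfra cells that also had an Scx UMI moved with this difference, 8.93% (149 cells) in Gli1+ and 0.777% (33 cells) in Gli1- uninjured tendon. Depth was not matched for these shares or for the split by Scx. The Pdgfra cells had a median of 9040 UMIs in Gli1+ and 5925 in Gli1- tendon. Among the Pdgfra cells with an Scx UMI the sorts had close levels of Comp, 2501 and 2395 CPM, with a log2 ratio of 0.06 (interval -0.06 to 0.18), and the ratios of Cilp2, Chad and Cilp were -0.05, 0.39 and -0.41. Among those without an Scx UMI, Comp was at 483 and 66.0 CPM, Chad at 67.7 and 12.2 CPM and Cilp2 at 15.4 and 3.35 CPM, and the log2 ratios were 2.87, 2.47 and 2.20. Cilp had 321 and 194 CPM there, a log2 ratio of 0.73.

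**Figure D4:**
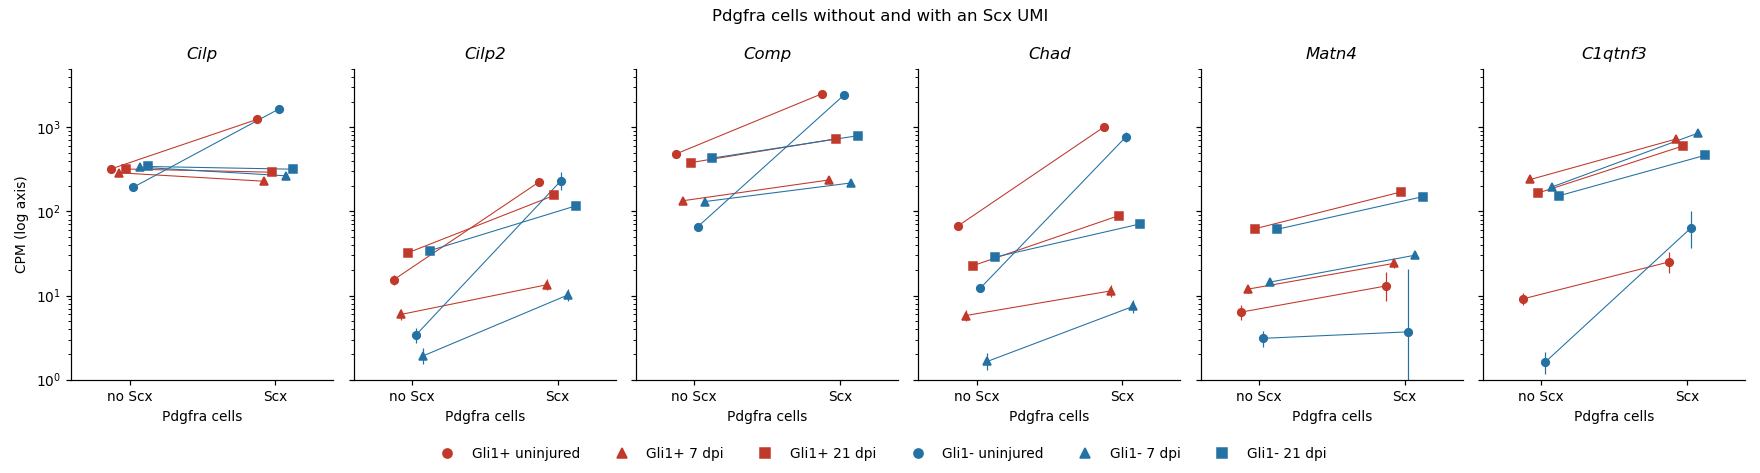
Level (CPM, log axis) of Cilp, Cilp2, Comp, Chad, Matn4 and C1qtnf3 in Pdgfra cells with and without an Scx UMI in the 6 libraries, with bars for the 95% counting interval. In uninjured tendon Comp, Chad, Cilp and Cilp2 are far higher in the cells with Scx in both sorts, and the gap is smaller at 7 and 21 dpi.

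At 7 dpi Pdgfra cells held far more C1qtnf3 and less Chad than in uninjured tendon, in both sorts. In Gli1+ Pdgfra cells 4 of 9 tested genes were called higher than in uninjured tendon and 3 lower, against 13.5% and 20.7% of 17535 genes, and their median log2 ratio was 0.86 against -0.17 for all tested genes. In Gli1- Pdgfra cells 5 were higher and 1 lower, against 14.2% and 15.5% of 17472 genes, with medians of 1.24 and -0.07. Matn1 had too few UMIs to be tested in either. Chad was the gene lower in both sorts.

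C1qtnf3 went from 11 to 374 CPM in Gli1+ and from 2.20 to 363 CPM in Gli1- Pdgfra cells, log2 ratios of 5.08 (4.87 to 5.30) and 7.37 (7.01 to 7.75). In Scx cells it went from 14.5 to 729 CPM and from 46.0 to 919 CPM. Its level in Cdh5 cells was higher as well, going from 1.13 to 193 CPM and from 1.89 to 106 CPM. Free RNA can give UMIs in cells that do not make them, and its part in these levels was not tested. With every cell thinned to 2000 UMIs, the share with a C1qtnf3 UMI was 33.7% and 26.7% of Gli1+ and Gli1- Pdgfra cells, 53.3% and 60.4% of Scx cells and 24.8% and 17.0% of Cdh5 cells at 7 dpi, against 0.908% and 0.168% of uninjured Pdgfra cells. Unthinned, it was 68.4% and 57.4% of Pdgfra and 38.5% and 29.3% of Cdh5 cells.

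Chad was lowest at 7 dpi. It was at 181 CPM in uninjured and 7.32 CPM in 7 dpi Gli1+ Pdgfra cells, a log2 ratio of -4.62 (-4.79 to -4.46), and at 19.6 and 3.12 CPM in Gli1- cells, a ratio of -2.65 (-2.89 to -2.41). Comp and Cilp2 were lower in Gli1+ cells, with 724 and 162 CPM (log2 ratio -2.16) and 40.5 and 8.01 CPM (-2.34), but were not called in Gli1- cells, where Comp stood at 88.7 and 153 CPM (0.79) and Cilp2 at 5.59 and 4.03 CPM (-0.47). Cilp was called in neither, with log2 ratios of -0.67 and 0.61.

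Matn2, the matrilin of most connective tissues, was called higher in both sorts, at 59.0 and 120 CPM (log2 ratio 1.02) in Gli1+ and 52.3 and 123 CPM (1.24) in Gli1- Pdgfra cells. Matn4, a matrilin of many tissues, was at 7.14 and 15.3 CPM (1.10) and at 3.1 and 18.5 CPM (2.57). A Matn4 UMI was held by 2.78% and 2.8% of thinned Gli1+ and Gli1- Pdgfra cells at 7 dpi. Among cells in none of the kinds it went from 0.722% uninjured to 2.57% and from 3.77% to 7.45%. For Matn2 it was 21.3% and 19.7% of Pdgfra cells, and among the others went from 2.24% to 13.1% and from 14.4% to 21.1%. In Cdh5 cells at 7 dpi it was 6.42% and 8.5%. Both genes were thus higher at 7 dpi outside Pdgfra cells too, in both sorts. Cnmd was called in both (2.19 on 6 and 76 UMIs, 1.35 on 22 and 125 UMIs) and Matn3 in Gli1- cells (3.37 on 7 and 161 UMIs), with all of these levels at or under 3.26 CPM and their Cdh5 background as given above. Thinned, Cnmd was at 0.48 and 0.83 and called in neither, and its Gli1- call was also lost with doublets kept (0.80) and with no cell filters (0.88). In cells with Y-linked and no Xist UMIs, the Gli1+ ratios of Matn2, Matn4 and Cnmd were 0.78, 0.45 and 0.62 and no longer called, Cilp was called lower (-1.10), and Chad (-5.67), Cilp2 (-3.66), Comp (-2.61) and C1qtnf3 (6.45) kept their calls. The Gli1- ratios there were 1.32 for Matn2, 2.91 for Matn4, -2.60 for Chad, 7.22 for C1qtnf3 and 0.77 for Comp. Gli1+ Pdgfra cells at 7 dpi held 2458 CPM of the 3 epidermal markers, all above 0, against 104 CPM in uninjured and 356 CPM at 21 dpi, and no Gli1- Pdgfra cells held more than 63.0 CPM. Without the cells that had a Ptprc or Krt5 UMI, the Gli1+ ratios of Matn2 and Matn4 were 0.95 and 0.88 and not called, on the 864 of 4127 cells at 7 dpi that were left.

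In Scx cells Chad, Comp, Cilp2 and Cilp were lower at 7 dpi in both sorts. In Gli1+ Scx cells 2 of 9 genes were called higher and 4 lower at 7 dpi, against 10.6% and 20.5% of 15356 genes, and in Gli1- Scx cells 2 and 5, against 7.59% and 11.4% of 13914 genes. Chad stood at 1047 CPM in uninjured and 26.2 CPM in 7 dpi Gli1+ cells, and at 918 and 16.8 CPM in Gli1- cells, log2 ratios of -5.32 (-5.45 to -5.19) and -5.77 (-5.96 to -5.58), or 39.9-fold and 54.5-fold lower. Comp stood at 1577 and 259 CPM and at 1745 and 233 CPM (-2.61 and -2.90). Cilp2 stood at 262 and 37.3 CPM and at 262 and 22.4 CPM (-2.81 and -3.54), and Cilp at 1028 and 274 CPM and at 1704 and 292 CPM (-1.91 and -2.55). The genes higher in both were C1qtnf3 (5.65 and 4.32) and Matn2 (1.37 and 1.63). Cnmd was lower in Gli1- Scx cells (-2.57), on 7 UMIs in the 95 uninjured cells. All 7 lay in the 50 cells with 1 Scx UMI, and the highest Cnmd count in 1 cell of that library was 7, so they may come from 1 cell. Over cells with Y-linked UMIs alone the Gli1+ ratios of Chad, Comp, Cilp2 and Cilp were -5.92, -2.83, -3.82 and -2.32, and those of Gli1- cells -5.54, -3.05, -3.65 and -2.44. There Matn3 gained a lower call in Gli1+ cells (-1.82) and Matn4 a higher call in Gli1- cells (1.03). Gli1+ Scx cells at 7 dpi held the epidermal markers as given above and Gli1- ones 44.1 CPM of them, and without the cells with a Ptprc or Krt5 UMI the Scx calls of both sorts were kept.

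Comp was lower at 7 dpi in the Pdgfra cells with Scx of both sorts. Without Scx the sorts differed in direction. Among Pdgfra cells with an Scx UMI, Comp went from 2501 to 237 CPM in Gli1+ and from 2395 to 218 CPM in Gli1- cells, log2 ratios of -3.40 and -3.46. Chad went from 1010 to 11.4 and from 770 to 7.43 CPM. Among those without an Scx UMI, Comp went from 483 to 134 CPM in Gli1+ cells (-1.85) but from 66.0 to 131 CPM in Gli1- cells (0.99), so that at 7 dpi the sorts were level. Comp in Cdh5 cells went from 32.3 to 76.5 CPM in Gli1+ and from 22.2 to 44.4 CPM in Gli1- tendon, and in thinned cells the share with a Comp UMI went from 3.38% to 13.8% and from 2.35% to 7.67% of Cdh5 cells, beside 26.0% to 21.1% and 5.13% to 18.1% of Pdgfra cells. The part of the background in the Comp levels was not tested. The share with an Scx UMI at 7 dpi was 21.2% and 18.2% of Gli1+ and Gli1- Pdgfra cells, at median depths of 10249 and 11429 UMIs.

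**Figure D5:**
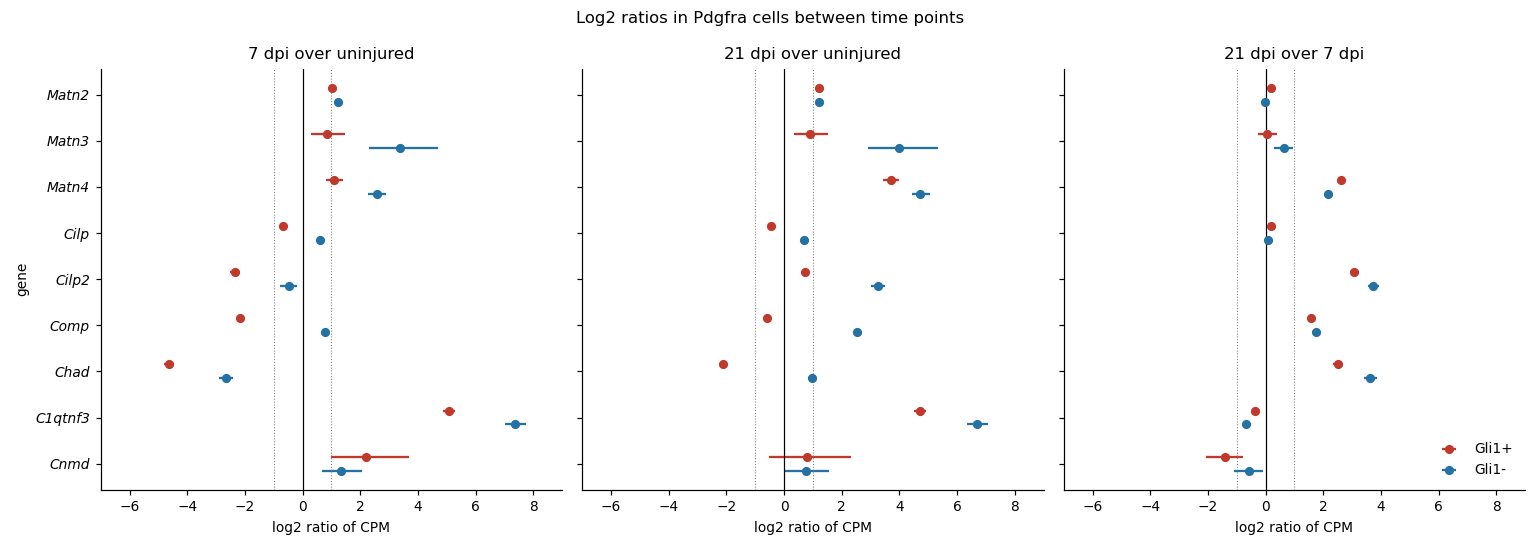
Log2 ratio of the summed levels in Pdgfra cells, with bars for the 95% counting interval, for 9 genes at 7 dpi over uninjured, 21 dpi over uninjured and 21 over 7 dpi, with Gli1+ and Gli1- cells side by side and dotted lines at -1 and 1. C1qtnf3, Matn4 and Matn2 lie above 1 in both sorts at both times after injury, and Comp and Chad lie on opposite sides of 0 in the 2 sorts at 21 dpi over uninjured.

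At 21 dpi Matn4, Cilp2, Comp and Chad stood higher than at 7 dpi in both sorts. In Gli1+ Pdgfra cells 4 of 9 genes were called higher than at 7 dpi and 1 (Cnmd) lower, against 4.83% and 12% of 17665 genes, and in Gli1- Pdgfra cells 4 and 0, against 5.71% and 6.83% of 17585 genes. Matn4 went from 15.3 to 93.2 CPM and from 18.5 to 82.3 CPM (log2 ratios 2.61 and 2.16). Cilp2 went from 8.01 to 67.2 and from 4.03 to 53.7 CPM (3.07 and 3.74). Comp went from 162 to 480 and from 153 to 517 CPM (1.56 and 1.75). Chad went from 7.32 to 41.5 and from 3.12 to 38.7 CPM (2.5 and 3.63). Cdh5 cells at 21 dpi had 7.36 and 12.8 CPM of Matn4, 10.2 and 11.5 CPM of Cilp2, 37.4 and 74.5 CPM of Comp and 9.06 and 7.84 CPM of Chad. C1qtnf3 was not called, with values from 374 to 290 CPM (-0.37) and from 363 to 228 CPM (-0.67), with 9.62 and 35.0 CPM in Cdh5 cells, and Matn2 and Cilp moved by at most 0.20 in either sort. All of these comparisons set a library of one sex beside a library of the other.

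Against uninjured tendon, 3 of 9 genes were higher and 1 lower in Gli1+ Pdgfra cells at 21 dpi, where 7.87% and 20.8% of 16985 genes were called, and 6 were higher and 0 lower in Gli1- Pdgfra cells, where 12.5% and 16% of 16681 genes were called. C1qtnf3 (4.71 in Gli1+ and 6.69 in Gli1-), Matn4 (3.71 and 4.73) and Matn2 (1.19 and 1.21) were higher in both, and together with 7 dpi these 3 were the genes called higher in all 4 comparisons of injured with uninjured Pdgfra cells, which share the uninjured library of each sort. At 7 dpi in Gli1+ cells 2 of these calls lay near 2-fold. That of Matn4 (1.10) was lost with no cell filters (0.86), with doublets kept (0.75), with all cells of the gate gene (0.90) and with 2 UMIs of it (0.82), and that of Matn2 (1.02) with the mean of per-cell CPM (0.82) and with all cells of the gate gene (0.94), beside the losses given elsewhere for cells of one sex, without Ptprc or Krt5 and thinned. C1qtnf3 kept all 4 calls under every alternative that gave a value. Of 15956 genes tested in all 4, 4.48% were called higher in each and 6.23% lower in each. Comp (2.54), Cilp2 (3.26) and Matn3 (4.0, from 7 to 149 UMIs) were called higher in Gli1- cells alone, and Chad lower in Gli1+ cells alone (-2.12, against 0.98 in Gli1- cells). In Gli1+ cells with Xist and no Y-linked UMIs, Matn4 was at 3.99, C1qtnf3 at 4.33, Matn2 at 1.36 and Chad at -1.45, and Matn3 (1.81) and Cilp2 (1.91) gained a call.

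In Scx cells Matn4, C1qtnf3 and Matn2 were higher and Chad, Cilp and Comp lower at 21 dpi in both sorts, the calls of Comp lying near 2-fold. In Gli1+ Scx cells 3 of 8 tested genes were higher and 3 lower than in uninjured tendon, against 6.87% and 26.2% of 14989 genes, and in Gli1- Scx cells 3 and 4 of 9, against 5.52% and 11.7% of 12958 genes. Matn4 stood at 44.1 CPM in uninjured and 217 CPM in 21 dpi Gli1+ cells, and at 25.4 and 172 CPM in Gli1- cells (log2 ratios 2.30 and 2.76). C1qtnf3 stood at 14.5 and 626 CPM and at 46.0 and 527 CPM (5.43 and 3.52), and Matn2 stood at 38.8 and 140 CPM and at 41.2 and 138 CPM (1.85 and 1.75). Lower were Chad, with 125 and 91.3 CPM at 21 dpi (-3.07 and -3.33), Cilp, with 355 and 368 CPM (-1.53 and -2.21), and Comp, with 765 and 855 CPM (-1.04 and -1.03). The other lower call in Gli1- cells was Cnmd (-3.05), on the 7 uninjured UMIs described above and 18 UMIs at 21 dpi. Cnmd had too few UMIs in Gli1+ cells. Cilp2 was back near its uninjured level, with 206 and 165 CPM (-0.34 and -0.66). Among Gli1+ cells with Xist UMIs, Comp (-0.77) lost its call and Chad, Cilp and Matn4 were at -2.88, -1.30 and 2.55. The Comp calls of both sorts were also lost with no cell filters (-0.93 and -0.89) and with doublets kept (-0.98 and -0.97). The same held with all cells of the gate gene (-0.77 and -0.44) and the mean of per-cell CPM (-0.98 and -0.68). With 2 UMIs of the gate gene the Gli1- call of Comp was lost (-0.94).

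These calls lean on the scaling where they lie near 2-fold. The median log2 ratio of all tested genes was as low as -0.44 (Gli1+ Scx cells, 21 dpi), and scaling factors by the trimmed mean of M values (TMM) added 0.27 and 0.40 to the Gli1+ Pdgfra ratios at 7 and 21 dpi over uninjured, 0.35 and 0.58 to the Gli1+ Scx ratios, and 0.14 and 0.12 to the Gli1- Pdgfra and 0.22 and 0.30 to the Gli1- Scx ratios. With them the lower calls of Comp in Scx cells at 21 dpi were lost in both sorts (-0.47 and -0.73), as were that of Cilp in Gli1+ Scx cells (-0.96) and the higher call of Cilp in uninjured Gli1+ Pdgfra cells (0.88). Gained were Matn3 in Gli1+ Pdgfra cells at 7 and 21 dpi (1.13 and 1.31), Cilp2 there at 21 dpi (1.13) and Chad in Gli1- Pdgfra cells at 21 dpi (1.11). Among ratios that were not called, those in Gli1+ Scx cells of Matn4 and Cnmd at 7 dpi and of Cilp2 and Matn3 at 21 dpi changed sign, to 0.06, 0.32, 0.23 and 0.33. Between the sorts in Pdgfra cells, Matn2 in uninjured tendon and C1qtnf3 at 7 dpi went to just under 0. With every cell thinned to 2000 UMIs, so that deep cells weigh no more than others, Matn2 was no longer called in Gli1+ Pdgfra cells (0.70 at 7 dpi and 0.71 at 21 dpi), nor Chad there at 21 dpi (-0.82), nor Comp in Scx cells at 21 dpi (-0.65 in Gli1+ and -0.04 in Gli1-). In thinned Gli1- Pdgfra cells Cilp was called higher at 7 and 21 dpi (1.37 and 1.41), Comp at 7 dpi (1.26) and Chad at 21 dpi (2.34), while Cnmd at 7 dpi (0.83) was not. Matn3, at 2.16 and 2.80 at 7 and 21 dpi, kept its direction but lost its calls there.

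After injury few of the genes were called between the sorts in Pdgfra cells. At 7 dpi 1 of 9 genes was higher in Gli1+ than in Gli1- cells (Chad, 1.23) and 0 lower, against 5.41% and 2.15% of 18093 genes, and at 21 dpi 0 were higher and 1 lower (Cnmd, -1.13 on 29 and 50 UMIs), against 1.92% and 2.12% of 16965 genes. The call of Chad at 7 dpi was lost in cells with Y-linked UMIs (0.97). Cilp2, at 0.99, was called in 6 of the alternatives, with ratios of 1.12 to 1.49. In thinned cells at 7 dpi Chad had a UMI in 1.33% of Gli1+ Pdgfra and 0.917% of Gli1+ Cdh5 cells and Cilp2 in 1.72% and 1.83%, and in Gli1- tendon the shares were 0.477% and 0.5% for Chad and 0.894% and 0.5% for Cilp2, the Gli1+ Cdh5 values being 1 and 2 of 109 cells with upper limits of 5.01% and 6.47%. Among Pdgfra cells at 7 dpi without an Scx UMI the ratios of Gli1+ over Gli1- were 1.81 (1.42 to 2.21) for Chad, at 5.78 and 1.65 CPM, and 1.64 (1.27 to 2.02) for Cilp2, at 5.96 and 1.91 CPM. The part of the background in these ratios was not tested. The Cnmd levels of the Cdh5 cells are given above. Apart from Chad and Cilp2 (0.99) the ratios at 7 dpi lay between -0.30 and 0.32, and apart from Cnmd those at 21 dpi between -0.25 and 0.35. At 21 dpi Comp was at 480 and 517 CPM (-0.11, interval -0.14 to -0.08), Matn4 at 93.2 and 82.3 CPM (0.18, 0.11 to 0.25) and Chad at 41.5 and 38.7 CPM (0.10, 0.00 to 0.20).

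Within injured tendon the genes differed in how closely they followed Scx. At 21 dpi Pdgfra cells with an Scx UMI held 731 and 796 CPM of Comp in Gli1+ and Gli1- tendon, against 380 and 431 CPM in those without. Cilp2 had 155 and 116 CPM against 32.4 and 34.3 CPM, and Chad 89.0 and 71.2 against 22.6 and 28.6 CPM. Matn4 had 170 and 150 against 62.4 and 61.4 CPM, and C1qtnf3 had 603 and 465 against 165 and 154 CPM. Cilp, at 1242 and 1651 CPM in the uninjured cells with Scx and 321 and 194 CPM in those without, stood at 293 and 318 CPM with and 320 and 342 CPM without Scx at 21 dpi. C1qtnf3 also went with the number of Scx UMIs, at 7 dpi from 479 and 584 CPM in Gli1+ and Gli1- Scx cells with 1 such UMI to 1067 and 1274 CPM in cells with 3 or more.

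Other markers were used to split all cells with a Pdgfra or Scx UMI and no Col2a1 or Cdh5 UMI. Cells with a UMI of Fmod (fibromodulin, a tenocyte proteoglycan) had more Cilp2 and Chad than those without, with log2 ratios at 21 dpi of 5.07 and 4.32 for Cilp2 in Gli1+ and Gli1- cells, 5.21 and 3.93 for Chad and 3.30 and 2.69 for Matn4, but 0.55 and 0.37 for Cilp. Cells with a UMI of Tnfaip6, a hyaluronan-binding protein of injured tissue, had less Chad (-1.96 and -1.73) and more C1qtnf3 (1.03 and 0.57), and those with an Acan UMI had more C1qtnf3 (1.52 and 1.43) and less Cilp (-0.59 and -0.52). With a UMI of Pi16, a marker of adventitial fibroblasts, Cilp was higher (0.88 and 0.79) and Chad lower (-1.66 and -1.32). Depth was not matched between the cells with and without a marker UMI.

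Cilp2 and Chad were found together more often than the product of their shares, though most Cilp2 cells held no Chad UMI. With each cell thinned to 2000 UMIs, 95 Gli1+ Pdgfra cells at 21 dpi held both, of 370 with Cilp2 and 193 with Chad, which is 5.89 times (4.76 to 7.20) the number that the product gives. In Gli1- tendon 54 cells held both, of 268 and 124, 6.0 times (4.51 to 7.83). Within Scx cells, where both are more frequent, the figures were 2.22 and 2.43 at 21 dpi and 6.64 in Gli1+ cells at 7 dpi. Matn4 with Cilp2 (2.95 and 3.53) and Comp with Chad (2.20 and 1.97) were likewise over 1 in Pdgfra cells at 21 dpi. Matn2 with Cilp (0.91 and 0.96) was at about 1, and Chad with C1qtnf3 in Scx cells at 7 dpi was under 1 in both sorts (0.67, 0.45 to 0.97, and 0.64, 0.36 to 1.05). Scx cells with 3 or more of the 10 genes made up 48.4% and 42.5% of Gli1+ and Gli1- cells in uninjured tendon, 18.9% and 16.4% at 7 dpi and 40.6% and 39.3% at 21 dpi.

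The bases before the starts of Cilp2 and Chad are given for the same reason as those above. These genes are a pair that was high in uninjured Scx cells and low at 7 dpi, as Comp and Cilp were too. The bases come from chr8:69887393-69887642 (minus strand) and chr11:94564797-94565046 (plus strand) of GRCm38.p6, again 250 bases with E-boxes in capitals.
Cilp2: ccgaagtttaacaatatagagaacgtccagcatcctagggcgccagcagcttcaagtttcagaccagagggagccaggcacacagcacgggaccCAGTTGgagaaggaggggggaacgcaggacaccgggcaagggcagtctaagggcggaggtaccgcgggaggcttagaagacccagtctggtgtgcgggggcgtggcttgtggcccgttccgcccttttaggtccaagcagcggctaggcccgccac
Chad: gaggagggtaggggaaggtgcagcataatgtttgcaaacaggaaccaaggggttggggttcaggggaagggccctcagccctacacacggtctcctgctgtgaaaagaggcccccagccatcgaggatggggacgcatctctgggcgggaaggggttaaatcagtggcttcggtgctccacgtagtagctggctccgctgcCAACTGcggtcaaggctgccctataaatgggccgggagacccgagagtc
Each had 1 E-box, at 156 bases before the start in Cilp2 and 49 in Chad. Chad also had a TATA box at 28 bases and a GC box at 108 bases before the start, and Cilp2 had 2 GC boxes and 1 SOX motif. Among the other genes Matn1 and Cilp had 3 E-boxes each and C1qtnf3 had 1, and of the 2 Matn4 starts 1 had an E-box.

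Over 24 sums (the 4 gates of the rule, overlapping cells included, in 6 libraries) each gene was set beside 14442 genes with at least 500 UMIs, by the correlation of log2(CPM + 1). The sums share libraries and cells, so the values describe likeness only. They include the uninjured Col2a1 cells that were not used as chondrocytes, 22 in Gli1+ and 1 in Gli1- tendon. That 1 cell, with 19568 UMIs and none of the 10 genes, counts as much as any other sum. Its part in the correlations was not tested. Matn3 and Cnmd were each other's closest (Pearson's r 0.98), followed in both by Hapln1, the link protein of cartilage. Cilp2 was most like Itgbl1 (0.93) and also near Tnmd (0.88). Comp was like Fibin (0.95), Chad like Crispld1 (0.92). Cilp was like Adcy7 (0.98) and Prg4 (0.95), the joint lubricant. Matn2 was like Col6a3 (0.98), a chain of type VI collagen, and C1qtnf3 like P2ry10b (0.97). Matn4 had the weakest nearest gene, Rnf11 (0.91), and Matn1 was most like Wwp2 (0.95), on 481 UMIs over the 24 sums, which count shared cells more than once.

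Among 40 other cartilage and tendon matrix genes, 12 of 35 tested were higher and 9 lower at 7 dpi in Gli1+ Pdgfra cells, beside 13.5% and 20.7% of all tested genes. In Gli1- cells 19 and 4 of 36 were called, beside 14.2% and 15.5%. At 21 dpi 17 and 5 of 37 were called in Gli1+ cells, beside 7.87% and 20.8%, and 23 and 3 of 37 in Gli1- cells, beside 12.5% and 16%. In all 4 comparisons 11 of 35 were higher and 3 lower, beside 4.48% and 6.23% of all genes. Ranked by the smallest size of their 4 log2 ratios, the leading 8 of the 11 higher genes were Acan (5.39), tenascin C (Tnc, 3.88), Col11a1 (2.96), Mia (2.93), Col9a1 (2.75), C1qtnf6 (2.54), Snorc (1.77) and biglycan (Bgn, 1.55), and the lower genes were Cytl1 (1.88), Omd (1.35) and decorin (Dcn, 1.02). In Scx cells the same list had 8 higher and 12 lower of 34 in Gli1+ cells at 7 dpi, beside 10.6% and 20.5% of all genes, and 3 and 11 of 32 in Gli1- cells, beside 7.59% and 11.4%. At 21 dpi it had 14 and 8 of 34 in Gli1+ cells, beside 6.87% and 26.2%, and 9 and 5 of 33 in Gli1- cells, beside 5.52% and 11.7%. Gli1+ Pdgfra cells of uninjured tendon had 14 of 32 higher and 0 lower than Gli1- cells, beside 13.5% and 5.07%. At 7 dpi 0 of 35 were higher and 1 lower between the sorts, beside 5.41% and 2.15%, and at 21 dpi 0 of 37 and 4, beside 1.92% and 2.12%. The 15 partners and regulators were Sox genes, collagen-binding integrins, Adamts proteases and TGF-beta ligands. Of these, 1 to 3 were higher and 0 to 4 lower in each of the 4 comparisons of injured with uninjured Pdgfra cells. The shares of all genes are given above. Adamts7, a protease that cleaves Comp, was called higher in all 4 (1.28 or more).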

How the data were processed

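Single-cell 3' libraries were made by the authors from sorted Achilles tendon cells and deposited as count matrices (whole-number UMI counts per gene and barcode). The submitters' processing notes name Cell Ranger 3.1.0, STAR and mm10, whereas the file headers name cellranger 9.0.0. All 33696 genes were used and 31961 of their IDs (94.9%) were found in GENCODE vM21. The filters of the study were used: cells under 200 genes, under 1000 UMIs or under a log10 gene to log10 UMI ratio of 0.7 were dropped, as were those over 5% mitochondrial or 5% hemoglobin UMIs. The top-scoring cells by Scrublet, 0.8% per 1000 cells, were removed as likely doublets in place of the study's DoubletFinder.

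Counts were summed per library and kind of cell, CPM were given exact Poisson intervals and shares exact binomial intervals, and a ratio of 2 sums was given the exact binomial interval of its counts, all at 95%. A sum of 0 was set to the floor of 3 counts and its ratio is a bound. With 1 library per group there was no test. Thinning drew 2000 UMIs per cell and left out shallower cells (at most 753 of any kind used, in uninjured Gli1- Cdh5 cells). The 10 genes, the lists and the markers were chosen with earlier results of these data known. Named were all 10 genes, the 3 most similar genes of each, and up to 8 other matrix genes called in all 4 comparisons of injured with uninjured Pdgfra cells. Alternatives were TMM (edgeR 4.0.16) and median-of-ratios (DESeq2 1.42.0) factors, no minimum of UMIs, no cell filters, doublets kept, gates without exclusions or with 2 UMIs, thinned cells, the mean of per-cell CPM and cells of one sex. Cells without Ptprc or Krt5 UMIs were added after seeing the data. The ratio script was tested on simulated data. Python 3.11.15, scanpy 1.11.5, scipy 1.17.1 and R 4.3.3 were used.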

Additional observations from a re-analysis of the deposited data

Results flagged for a closer look

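Cilp, Comp and Chad pointed in opposite directions in the Gli1+ and Gli1- sorts in Pdgfra cells, each sort being 1 library, and the difference between the sorts was not tested. At 7 dpi over uninjured the log2 ratio of Cilp was -0.67 in Gli1+ and 0.61 in Gli1- cells, and that of Comp -2.16 and 0.79. At 21 dpi over uninjured Cilp was at -0.47 and 0.70, Comp at -0.59 and 2.54 and Chad at -2.12 and 0.98. For these 3 genes the sorts differed in uninjured Pdgfra cells and had close levels at 21 dpi, as given above. The opposite signs thus start from unlike uninjured levels. Sex and time cannot be told apart in the Gli1- values at 21 dpi. In Gli1+ cells with Xist and no Y-linked UMIs, Cilp, Comp and Chad were at -0.33, -0.32 and -1.45. In Pdgfra cells that also had an Scx UMI the 3 genes were lower after injury in both sorts, at 21 dpi with log2 ratios of -2.08 and -2.38 for Cilp, -1.77 and -1.59 for Comp and -3.50 and -3.44 for Chad. Among those without an Scx UMI they were at -0.01 and 0.82, -0.34 and 2.71, and -1.58 and 1.23.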

How the results depend on the processing

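Summed counts of single libraries carry no spread between mice. With all cells of the gate gene, those with Col2a1 or Cdh5 UMIs included, 3 called ratios of Cnmd turned. The ratio of 21 over 7 dpi in Gli1+ Pdgfra cells went to 2.18. Those of Gli1- Scx cells over uninjured went to 0.90 at 7 dpi and 1.99 at 21 dpi. Of ratios not called before, 5 changed sign and were called there: Cnmd for 21 over 7 dpi in Gli1- Pdgfra cells (2.24) and in Gli1+ Scx cells at 7 and 21 dpi over uninjured (1.96 and 2.40), and Matn3 in Gli1- Scx cells at 21 dpi (2.25) and between the sorts at 7 dpi (-1.03). That setting also gave 7 calls for 21 over 7 dpi in Gli1- Pdgfra cells in place of 4, and 3 in place of 1 between the sorts at 7 and at 21 dpi. The 1 call between the sorts at 7 dpi became 2 with no cell filters, with doublets kept, with 2 UMIs of the gate gene, with the mean of per-cell CPM and without Ptprc or Krt5 cells, 3 in thinned cells and 0 in cells with Y-linked UMIs. The 1 call at 21 dpi became 0 with 2 UMIs of the gate gene and 0 in thinned cells. The cause was not tested. Thinning changed the most calls, 15 lost and 9 gained, among them Comp in Gli1- Scx cells at 21 dpi (-0.04) and Chad in Gli1+ Pdgfra cells at 21 dpi (-0.82). TMM and median-of-ratios factors each lost 4 calls and gained 4, the mean of per-cell CPM lost 4 and gained 9, and the absence of a minimum changed none. Values within Y-linked cells could not be given for 9 of 15 comparisons and within Xist cells for 10. Cnmd, Matn1 and Matn3 in Pdgfra cells rest on 0 to 161 UMIs, which limits what these sums can show.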
